A study of Mus musculus with 18 samples.

Results

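Expression of 8 genes that make or break down asparagine, aspartate, glutamine and glutamate was examined in mouse liver. They were chosen by name as enzymes of this branch of metabolism, by a rule that sets no limit on a measured value but with earlier results of these data known, and all 8 were found among the 37303 genes of the expression table. *Asns* encodes asparagine synthetase, *Aspg* and *Asrgl1* encode asparaginases of the mouse itself, *Glul* encodes glutamine synthetase, *Gls2* encodes the liver glutaminase, *Got1* and *Got2* encode the cytosolic and mitochondrial aspartate aminotransferases, and *Glud1* encodes glutamate dehydrogenase.

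RNA-Seq was performed on livers of 18 C57BL/6J mice, 3 in each of 6 groups. Wild type mice (WT), mice with a whole body deletion of *Gcn2* (Gcn2-/-) and mice with a whole body deletion of *Atf4* (Atf4-/-) received 8 daily injections of L-asparaginase from *Escherichia coli* (ASNase, 3 IU per gram body weight) or of phosphate buffered saline (PBS), and livers were taken 7.5 h after the last one by the labels. Ages were given as 8 to 16 weeks in the sample labels and as 8 to 12 weeks in the protocol, and both sexes were used, with 2 males of 3 in WT ASNase and in both Atf4-/- groups and 1 male of 3 in WT PBS and in both Gcn2-/- groups. The WT groups thus differed in sex as well as treatment. The share of males also differed between Atf4-/- and WT under PBS and between Gcn2-/- and WT under ASNase. It differed between Atf4-/- and Gcn2-/- under both treatments. The part of sex in any difference was not tested. The deletions were present in all tissues and not in hepatocytes alone.

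Each group was represented by a single pooled value in FPKM, a read level scaled to transcript length and to sequencing depth, with the lower and upper bound of an interval. No value of a single mouse was analysed, so an error below is that of the pooled estimate and no p-value was computed. Genes with both values estimated and above 0, and either of them over 3 FPKM, were eligible. An eligible gene was called when the difference of log2(FPKM + 0.1) exceeded 1.5 in size and the intervals did not overlap. A value whose lower bound is 0 could therefore not be called higher than any other. The ± beside a log2 difference is the error of both values on the log2 scale. It was taken from the distance of each value to its upper bound, as a share of the value. This is a linear approximation, and it is rough where that distance is near the value or exceeds it, as for *Asns* under PBS, *Asrgl1* and *Glul*. A difference can exceed this error while the intervals overlap. In addition, the pseudocount of 0.1 understates differences of low genes.

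Asparagine is formed from aspartate in a reaction that takes its amide nitrogen from glutamine, and asparaginases return it to aspartate and ammonia. The bacterial enzyme given to these mice acts on asparagine and also, more weakly, on glutamine in the blood. In the liver, glutamine handling is divided along the lobule: glutaminase is found around the portal vein, where urea is made, and glutamine synthetase sits in the last hepatocytes around the central vein. GCN2 is a kinase that senses uncharged tRNA and phosphorylates the translation factor eIF2, and ATF4 is a transcription factor made in greater amounts when eIF2 is phosphorylated. *Asns* is a textbook target of ATF4, which binds an element in its promoter formed by a C/EBP and an ATF site.

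The letters TGATGNAA, the core of such an element, were searched on both strands from 250 bases before to 50 bases after each start site in RefSeq promoters of build GRCm38.p6. Of the 8 genes 7 had a promoter entry and 2 held the letters, as did 1304 of 32851 promoters in all (3.97%). The first count is of genes and the second of promoters, so they are not in the same unit. The windows below show both matches because one of them lies in the *Asns* promoter, and each is read on the strand of its gene with the matching letters in capitals.
Asns, chr6:7693207-7693236, minus strand: cacaTGATGAAActtcccgcacgcgttaca
Got1, chr19:43524682-43524711, minus strand: ttggTTGCATCAtacaagcctccgataaga
In *Asns* the match began 23 bases upstream of the RefSeq start at position 7693209, and it lay in an exon of 1 of the 7 transcripts that GENCODE M21 lists for the gene. In *Got1* the match was on the opposite strand and began 102 bases upstream of the start at 43524605. *Gls2* had no entry. A match of letters describes the sequence and does not show that a factor binds there.

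Of the 8 genes, *Asns* had the widest range relative to its level. Its level was 2.50 FPKM (interval 0 to 6.93) under PBS and 8.13 (1.97 to 14.3) under ASNase in WT mice, then 4.77 (0.486 to 9.05) and 5.94 (0.118 to 11.8) for Gcn2-/- mice, and 0.591 (0 to 1.70) and 20.1 (7.27 to 32.9) for Atf4-/- mice. Atf4-/- livers thus held both the lowest value, under PBS, and the highest, under ASNase. Counted from the most abundant gene of a group, *Asns* stood at place 12390 in Atf4-/- PBS and at place 3161 in Atf4-/- ASNase.

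In Atf4-/- mice *Asns* rose with ASNase by 4.87 ± 2.85 on the log2 scale, 34.0-fold in FPKM, and the 2 intervals were separate. It was the only one of the 8 genes called in this comparison, in which 7.37% of 9485 eligible genes were called and 2.74% were called higher. In WT mice the *Asns* difference after ASNase was 1.66 ± 2.78 (3.25-fold), and in Gcn2-/- mice it was 0.31 ± 1.92. Neither was called, because the intervals overlapped in both. None of the 8 genes was called in WT mice, beside 0.881% of 9084 eligible genes, and none in Gcn2-/- mice, beside 3.69% of 9218.

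The *Asns* response of Atf4-/- mice differed from that of WT mice by 3.21 ± 3.98, and that of Gcn2-/- mice by -1.35 ± 3.37, both within their errors. By this error the responses were not told apart between strains, although *Asns* was called in 1 strain only. The error is rough here, because the distance to the upper bound exceeded the *Asns* value in WT PBS and in Atf4-/- PBS. The rule for responses needs a difference over 1.5 and over its error. By it 0 of the 8 genes differed from WT in either knockout, beside 4.55% of 8650 genes for Gcn2-/- and 7.16% of 8770 for Atf4-/-.

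Between strains under ASNase, *Asns* was higher in Atf4-/- than in Gcn2-/- livers by 1.74 ± 1.69, with overlapping intervals and so no call, and its difference from WT livers was 1.29 ± 1.43. Under PBS *Asns* was below 3 FPKM in both WT and Atf4-/- livers and was not eligible there, with a log2 difference of -1.91 ± 3.71. The remaining differences were 0.90 ± 2.86 for Gcn2-/- against WT under PBS, -0.45 ± 1.79 for Gcn2-/- against WT under ASNase and -2.82 ± 2.99 for Atf4-/- against Gcn2-/- under PBS. Of the 15 pairs of groups, 3 had separate *Asns* intervals, and all 3 involved an Atf4-/- group. These were Atf4-/- ASNase with Atf4-/- PBS, Atf4-/- ASNase with WT PBS and Atf4-/- PBS with WT ASNase, in which 8.03%, 9.61% and 1.86% of eligible genes had separate intervals. No neighbours in the order of the 6 levels were separate.

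**Figure D1:**
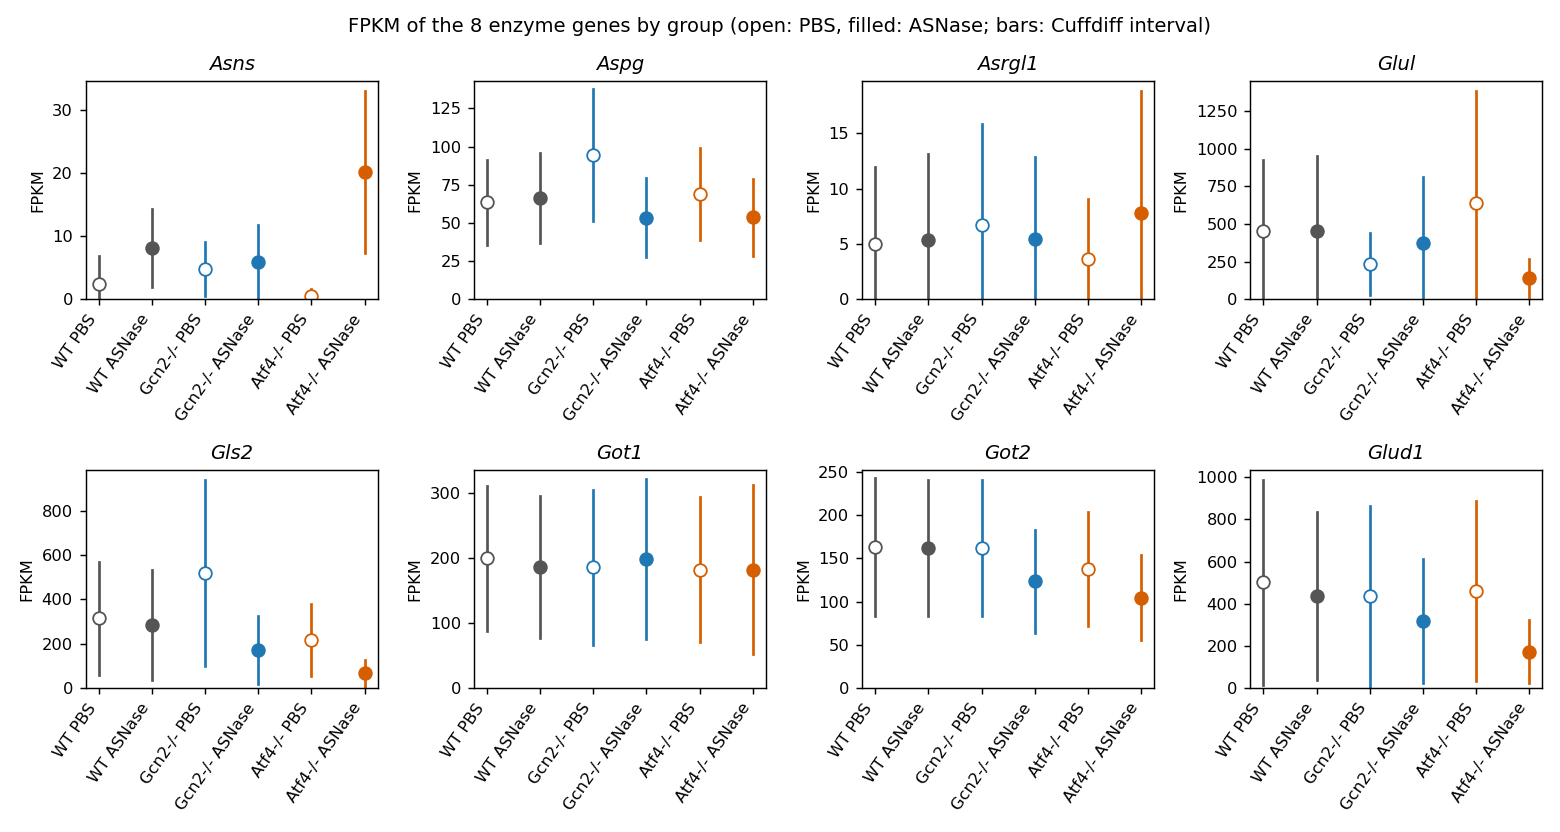
FPKM of each of the 8 genes in the 6 groups, a panel per gene. Points are the pooled group values and bars run from the lower to the upper bound of the deposited interval. *Asns* in Atf4-/- ASNase (20.1 FPKM) clears the interval of Atf4-/- PBS (0.591 FPKM), and the bars of the other genes overlap across groups.

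Markers of pancreatic acinar cells, a cell type with high asparagine synthetase, were highest in the groups where *Asns* was highest. Of 12 acinar genes, 12 were higher in WT ASNase and in Atf4-/- ASNase than in each of the other 4 groups. Summed over the list, the level under PBS and ASNase was 13.4 and 79.2 FPKM for WT, 10.6 and 5.47 for Gcn2-/- and 16.2 and 402 for Atf4-/- livers. Without *Cela1* and *Cela2a*, left out after their values were seen because they were present in all groups, the sums under PBS and ASNase were 0.665 and 52.8 for WT, 0.0407 and 0.0180 for Gcn2-/- and 0.953 and 338 for Atf4-/- livers. *Ctrb1*, a chymotrypsinogen gene, was the highest of these at 19.7 FPKM in WT ASNase and 176 in Atf4-/- ASNase. The part of acinar RNA in the *Asns* values was not tested. In the Gcn2-/- groups no acinar gene other than *Cela1* and *Cela2a* exceeded 0.0215 FPKM, while *Asns* was at 4.77 and 5.94.

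**Figure D2:**
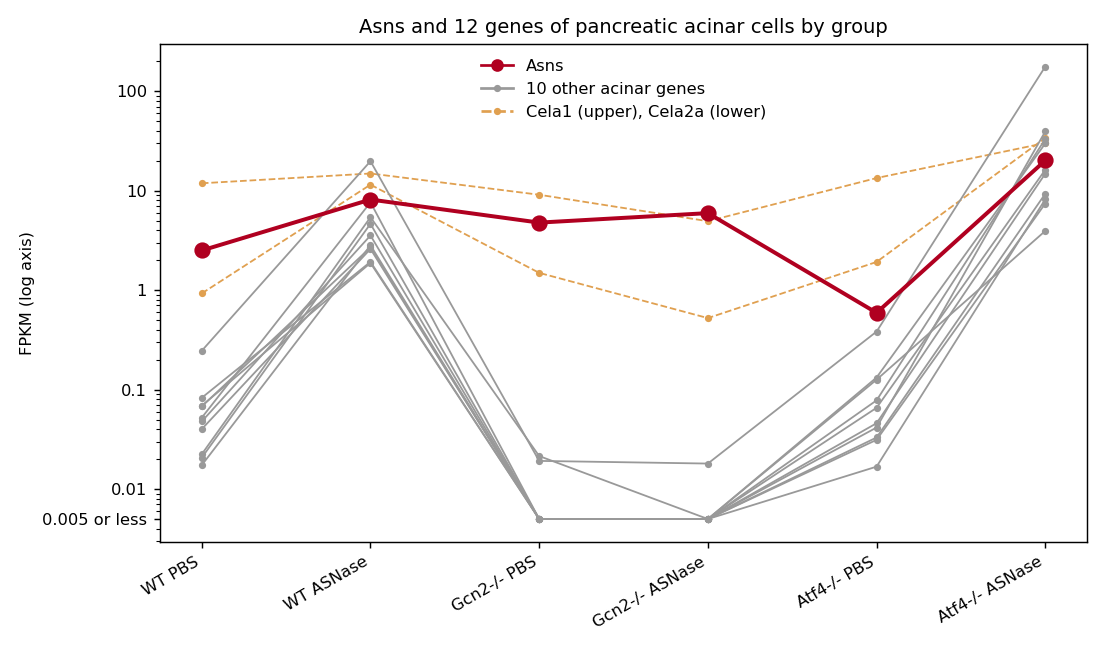
Level of *Asns* and of 12 pancreatic acinar marker genes in the 6 groups, in FPKM on a log axis, with values at or below 0.005 drawn at 0.005. *Asns* and the acinar genes are both highest in Atf4-/- ASNase, and apart from *Cela1* and *Cela2a* the acinar genes are near 0 in both Gcn2-/- groups.

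Summed skeletal muscle markers ranged from 10.8 FPKM in Gcn2-/- PBS to 1477 in WT ASNase, and were 87.9 and 197 in the Atf4-/- groups. Of 10 hepatocyte markers 7 or 8 had an estimate in each group, and all of these were above 145 FPKM. The missing ones carried the status HIDATA, by which Cuffdiff marks loci with too many reads. These were *Alb* and *Trf* in all groups, *Serpina1a* in Atf4-/- PBS, and *Fgb* in Gcn2-/- ASNase and Atf4-/- ASNase. *Fgb* was at 4043 and 4919 FPKM in the PBS groups of these strains. The medians below leave such genes out. After ASNase the median log2 difference of the eligible hepatocyte markers was -0.09 in WT mice (4 of 8 lower), -1.09 in Gcn2-/- mice (6 of 7 lower) and -0.80 in Atf4-/- mice (4 of 6 lower). Over all eligible genes 51%, 48.5% and 46.2% were lower, in the same order. None of the markers was called, beside 0.881%, 3.69% and 7.37% of all eligible genes. The part of these marker values in the differences of the enzymes and of the zonal genes, and that of muscle, was not tested. The values of the deleted genes are for each gene as a whole and no exon was read on its own, so they do not check the labels. *Eif2ak4*, which encodes GCN2, lay between 2.19 and 3.14 FPKM. *Atf4* was at 32.3 and 29.3 FPKM in Atf4-/- livers and at 50.4 to 68.1 in the others. The paper reports from read density plots that a *Gcn2* exon and *Atf4* were absent in the respective knockouts. In bulk tissue, fewer cells of a type and less RNA per cell cannot be told apart, and this holds for all values here.

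The 2 asparaginases of the mouse itself were not called in any comparison, and for *Asrgl1* the rule allowed no call. *Aspg* was at 63.6 FPKM under PBS and 66.2 under ASNase in WT mice, then 94.4 and 53.5 for Gcn2-/- mice, and 68.8 and 53.7 for Atf4-/- mice. Its highest value was in Gcn2-/- PBS, and the ASNase difference there was -0.82 ± 0.96, within its error. In WT mice that difference was 0.06 ± 0.90 and in Atf4-/- mice it was -0.36 ± 0.93. *Aspg* was among the more precisely estimated of the 8, its bounds lying 43.7% to 48.4% of the value away.

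*Asrgl1*, which acts on asparagine and on isoaspartyl peptides, was at 4.99, 5.35, 6.70, 5.44, 3.67 and 7.78 FPKM, in the order WT, Gcn2-/-, Atf4-/- with PBS first in each. Its interval reached 0 in all 6 groups, with upper bounds between 9.03 and 18.8 FPKM. The largest of its 9 differences was 1.06 ± 2.93, for ASNase in Atf4-/- mice. The errors of its differences were 2.78 to 2.93. Because every lower bound was 0, no difference of *Asrgl1*, whatever its size, could be called.

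Glutamine synthetase and glutaminase had their lowest values in the same group, Atf4-/- ASNase. *Glul* was at 452 FPKM (0 to 921) under PBS and 454 (0 to 950) under ASNase in WT mice, then 233 (27.1 to 440) and 370 (0 to 814) for Gcn2-/- mice, and 639 (0 to 1378) and 140 (13.4 to 266) for Atf4-/- mice. The *Glul* difference after ASNase was 0.01 ± 2.17 for WT, 0.67 ± 2.15 for Gcn2-/- and -2.19 ± 2.12 for Atf4-/- mice. The last exceeded its error on the log2 scale but was not called. The *Glul* interval of Atf4-/- PBS reached 0, so no fall from it could be called and the rule could not decide.

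*Gls2* was at 314 FPKM (60.0 to 569) under PBS and 287 (38.3 to 535) under ASNase in WT mice, then 520 (99.9 to 939) and 171 (17.7 to 325) for Gcn2-/- mice, and 218 (55.6 to 380) and 65.6 (6.82 to 124) for Atf4-/- mice. The difference after ASNase was -0.13 ± 1.71 for WT, -1.60 ± 1.74 for Gcn2-/- and -1.73 ± 1.68 for Atf4-/- mice, and under ASNase Atf4-/- livers differed from WT by -2.12 ± 1.80. Both Atf4-/- differences exceeded their log2 errors, but all *Gls2* intervals overlapped and none of these was called. If a difference over 1.5 and over its log2 error were enough, a rule added after the values were seen, *Asns*, *Glul* and *Gls2* would be 3 of 8 genes for ASNase in Atf4-/- mice, beside 10% of all eligible genes. *Glul* (-2.19 ± 2.12) and *Gls2* would pass that rule narrowly, and the error is rough for *Glul* and for *Asns* under PBS. For Atf4-/- against WT under ASNase it would be *Gls2* alone, beside 11.1%, and for Atf4-/- against Gcn2-/- under ASNase *Asns* alone, beside 4.74%. By the rule used throughout, 8.25% of 9577 eligible genes were called for Atf4-/- against WT under ASNase, and *Glul* differed there by -1.70 ± 2.05, also without a call. The *Glul* interval of WT ASNase reached 0 as well, so the rule allowed no call there. The gene *Spryd4*, which lies on the opposite strand across *Gls2*, was at 16.5 to 27.7 FPKM, and with a library kit that does not mark strand reads of the 2 genes cannot be told apart where they overlap.

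The ratio of *Glul* to *Gls2* was 1.44 under PBS and 1.58 under ASNase in WT mice, then 0.449 and 2.16 for Gcn2-/- mice, and 2.93 and 2.13 for Atf4-/- mice. Its error exceeded its value in every group. The ratio was lowest in Gcn2-/- PBS, where *Glul* was at its second lowest level and *Gls2* at its highest.

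The aspartate aminotransferases carry amino groups between aspartate and glutamate on either side of the mitochondrial membrane. *Got1* was at 199, 186, 185, 198, 182 and 182 FPKM, in the order WT, Gcn2-/-, Atf4-/- with PBS before ASNase in each. The largest of its 9 log2 differences in size was -0.13, against errors of 1.17 to 1.37. *Got2* was at 163, 162, 162, 124, 138 and 105 FPKM in the same order, with the lower values in the ASNase groups of both knockouts and in Atf4-/- PBS. Its ASNase difference was -0.01 ± 1.0 for WT, -0.39 ± 0.99 for Gcn2-/- and -0.40 ± 0.97 for Atf4-/- mice. Neither gene was called anywhere.

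*Glud1*, which interconverts glutamate and 2-oxoglutarate with release or capture of ammonia, was at 501 FPKM under PBS and 436 under ASNase in WT mice, then 435 and 317 for Gcn2-/- mice, and 461 and 172 for Atf4-/- mice. The highest and lowest were WT PBS (15.9 to 986) and Atf4-/- ASNase (22.0 to 321), whose intervals overlapped. The ASNase difference was -0.20 ± 1.92 for WT, -0.46 ± 1.95 for Gcn2-/- and -1.42 ± 1.84 for Atf4-/- mice.

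**Figure D3:**
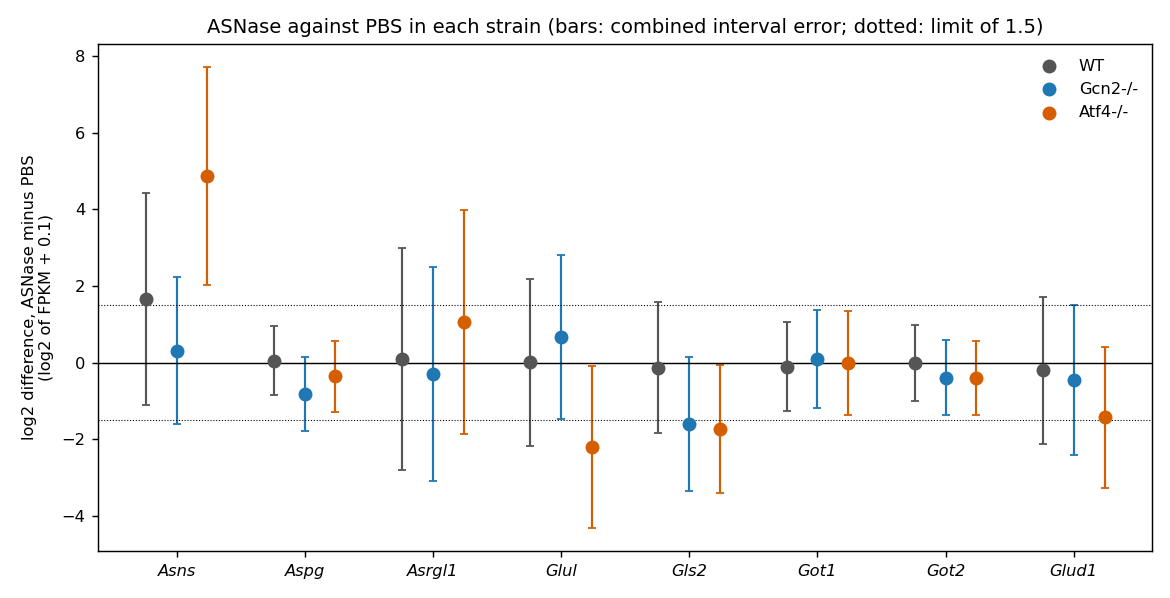
Difference of log2(FPKM + 0.1) between ASNase and PBS for the 8 genes in WT, Gcn2-/- and Atf4-/- mice, with bars for the combined error. *Asns* in Atf4-/- mice stands at 4.87, *Glul* and *Gls2* in Atf4-/- mice at -2.19 and -1.73, and *Got1* near 0 in all 3 strains.

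No gene of the 8 was called under PBS, where 1.04% of 8920 eligible genes were called for Gcn2-/- against WT, 1.12% of 9039 for Atf4-/- against WT and 0.976% of 9015 for Atf4-/- against Gcn2-/-. None was called under ASNase for Gcn2-/- against WT (4.41% of 9423) or for Atf4-/- against Gcn2-/- (3.19% of 9355). The distance from a value to its upper bound was 63.8% to 187% of the value for *Asns*, 136% to 146% for *Asrgl1*, 88.4% to 120% for *Glul*, 74.5% to 89.6% for *Gls2*, 87.2% to 98.7% for *Glud1*, 56.2% to 71.5% for *Got1* and 46.9% to 49.0% for *Got2*. Over all genes above 3 FPKM the median of a group was 51.3% to 54.2%. For the 7 genes other than *Asns*, none of the 15 pairs of groups had separate intervals. Where the higher value had a lower bound of 0, as in every pair of *Asrgl1* and most of *Glul*, none could be separate. The difference in FPKM exceeded the combined distance to the upper bounds in 1 pair, the highest and the lowest *Gls2* level (Gcn2-/- PBS and Atf4-/- ASNase). The median ASNase difference of the 8 genes was -0.34 in Gcn2-/- and -0.38 in Atf4-/- mice, beside 0.02 and 0.08 over all eligible genes.

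Around these enzymes, 45 further genes of amino acid, proline, urea and nucleotide nitrogen metabolism were read, of which 36 exceeded 3 FPKM in some group. In Atf4-/- mice 2 of 36 eligible genes were called higher after ASNase and 5 lower, beside 2.74% and 4.63% of all eligible genes. Called or not, 15 were higher and 21 lower, beside 46.2% lower over all eligible genes. The median difference of the list was -0.50, beside 0.08 over all eligible genes. *Ctps*, CTP synthase, which uses glutamine, rose from 1.35 to 8.83 FPKM (2.63 ± 1.18). *Gfpt1*, which uses glutamine to make glucosamine phosphate, rose from 3.51 to 16.1 FPKM (2.17 ± 1.19).

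Of the 5 genes called lower in Atf4-/- mice, *Prodh2*, a hydroxyproline dehydrogenase, fell from 118 to 14.0 FPKM (-3.06 ± 1.10). *Abat*, the aminotransferase of GABA, fell from 80.8 to 17.5 FPKM (-2.20 ± 0.95). *Aldh4a1*, which forms glutamate from the product of proline oxidation, fell from 129 to 30.3 FPKM (-2.09 ± 1.02). *Nit2*, an omega-amidase that completes a route of glutamine and asparagine breakdown, fell from 122 to 29.3 FPKM (-2.06 ± 0.87), and *Agxt*, an alanine and glyoxylate aminotransferase, from 181 to 58.2 FPKM (-1.64 ± 0.92). Against WT livers under ASNase, a comparison that shares the Atf4-/- ASNase group, 5 of 36 genes were called lower, beside 5.66% of all eligible genes. Their differences were -3.04 ± 1.08 for *Prodh2*, -2.37 ± 0.95 for *Abat*, -2.30 ± 1.03 for *Aldh4a1*, -1.78 ± 0.96 for *Agxt* and -1.76 ± 0.86 for *Nit2*.

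Other enzymes of the list were higher after ASNase in Atf4-/- mice without a call, and 3 aminotransferases are given here, chosen after their values were seen. *Tat*, tyrosine aminotransferase, was at 952 under PBS and 2013 FPKM under ASNase (1.08 ± 1.86), *Gpt2*, an alanine aminotransferase, at 135 and 221 FPKM (0.71 ± 1.54) and *Ccbl1*, a kynurenine aminotransferase, at 79.3 and 171 FPKM (1.11 ± 1.12). Further aminotransferases of the list were lower without a call. Under PBS and ASNase *Gpt* was at 145 and 95.7 FPKM and *Ccbl2* at 89.0 and 40.6. *Aadat* was at 48.0 and 17.9 FPKM, *Agxt2* at 75.6 and 35.4 and *Oat* at 519 and 75.7.

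In Gcn2-/- mice 1 of 36 genes was called, *Agxt*, which fell from 416 to 94.3 FPKM (-2.14 ± 1.0), beside 2.13% of all eligible genes called lower. The median of the list there was -0.47 against 0.02 overall. In WT mice 0 of 35 were called and the median was -0.02 against -0.01 overall. *Prodh2* was also called lower in Atf4-/- than in Gcn2-/- livers under ASNase (-1.94 ± 1.08). It was the only call of the list in that comparison, where 2.29% of all eligible genes were called lower.

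**Figure D4:**
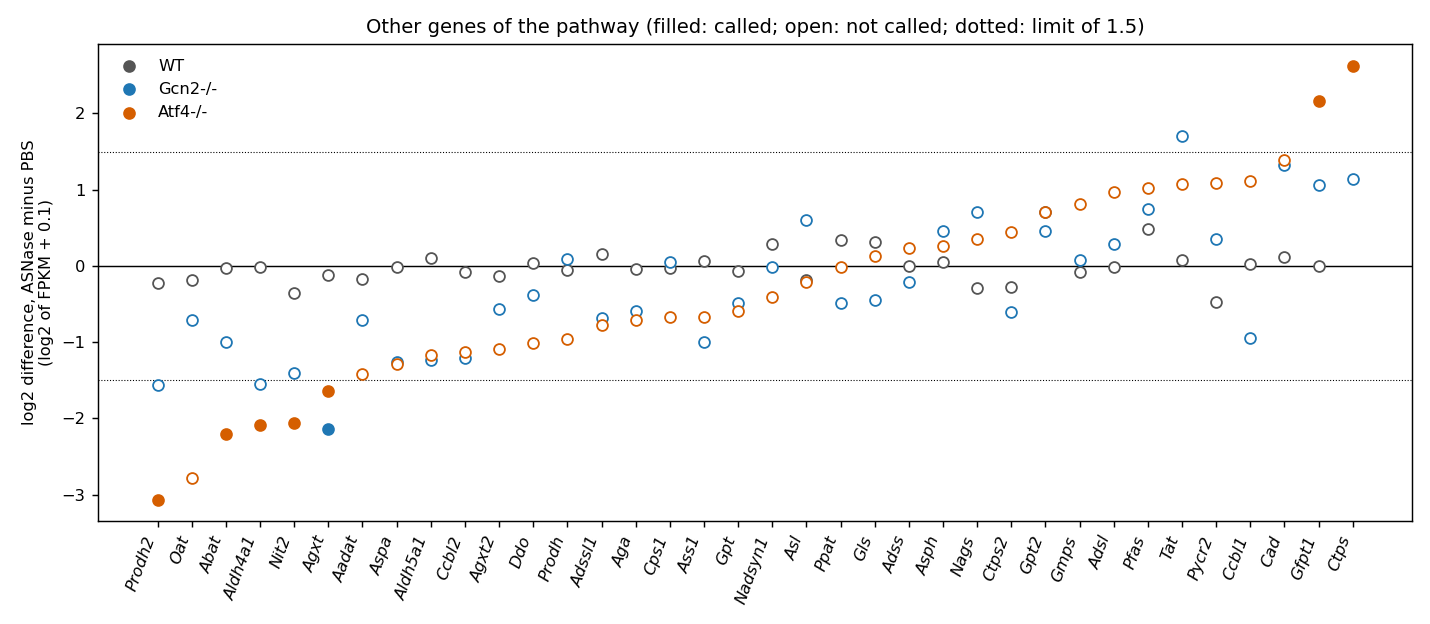
Difference of log2(FPKM + 0.1) between ASNase and PBS in WT, Gcn2-/- and Atf4-/- mice for the further genes of the pathway list, with filled points for called genes. Called genes appear in Atf4-/- mice (2 higher, 5 lower) and Gcn2-/- mice (1 lower), and none in WT mice.

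*Glul* and *Gls2* mark opposite ends of the lobule, so both were set beside other zonal genes. In Atf4-/- mice all 9 eligible genes of a pericentral list of 12 were lower after ASNase than after PBS, with a median of -1.98. Over all eligible genes 46.2% were lower and 4.63% were called lower. Of the 9, 2 were called, *Cyp1a2* (-3.42 ± 0.95), a cytochrome P450, and *Lect2* (-3.39 ± 1.0), which was named after its values were seen, while *Cyp2e1* was at -1.98 ± 1.90 and *Oat*, ornithine aminotransferase, at -2.78 ± 2.06. Of 12 periportal genes 11 were lower, with a median of -0.67, and 1 was called, *Cyp2f2* (-4.11 ± 1.14), with *Hal*, histidine ammonia-lyase, at -1.16 ± 1.32 and *Sds*, serine dehydratase, at -0.25 ± 1.76. The lists contain *Glul* and *Gls2* themselves. In Gcn2-/- against WT livers under PBS the pericentral median was -0.52 with 9 of 9 lower. The periportal median was 0.17 with 3 of 12 lower, beside 39.9% lower over all eligible genes. None was called in either list, beside 1.04% of all eligible genes.

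**Figure D5:**
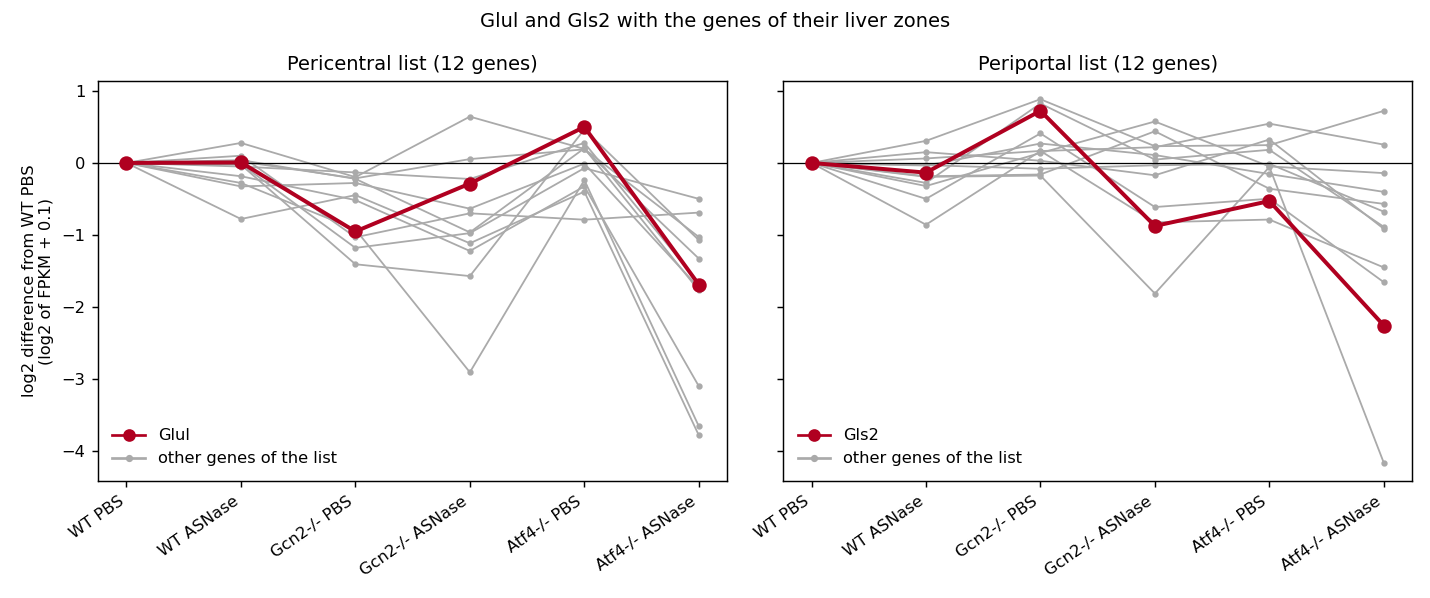
Difference of log2(FPKM + 0.1) from WT PBS for the genes of the pericentral and periportal lists in the other 5 groups, with *Glul* and *Gls2* drawn in colour. Most genes of both lists lie below WT PBS in Atf4-/- ASNase, while in Gcn2-/- PBS *Glul* lies below and *Gls2* above it.

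The genes whose levels followed each enzyme most closely over the 6 groups were found by Pearson's r of log2(FPKM + 0.1) among 9815 genes. With only 6 points, all of which share the same pooled groups, these are descriptions. Pearson's r does not reflect the size of a change, and for *Got1* and *Asrgl1* all differences were within their errors. *Asns* was followed by *Ube2j2* (0.985), *Usp16* (0.984) and the stress gene *Nupr1* (0.982), and 12 genes exceeded 0.95. In Atf4-/- PBS and Atf4-/- ASNase *Ube2j2* was at 23.5 and 40.2 FPKM, *Usp16* at 28.0 and 47.5 and *Nupr1* at 0.501 and 7.07. The nearest gene was *Cyp2a4* for *Gls2* (0.997), *Ehhadh* for *Got2* (0.998) and *Hpgd* for *Glud1* (0.997), with 338, 317 and 550 genes above 0.95. *Got1* had 3 such genes, the nearest being *Trit1* (0.965). The second nearest gene to *Glul* was *Prodh* (0.979), the first enzyme of proline breakdown, and the nearest to *Aspg* and *Asrgl1* were *C1d* (0.994) and *Tmem111* (0.993).

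The 8 genes lie at separate loci of GRCm38, by GENCODE M21. *Asns* is at chr6:7675169-7693254 on the minus strand, *Aspg* at chr12:112106679-112127559 on the plus strand, *Asrgl1* at chr19:9109868-9135636 on the minus strand and *Glul* at chr1:153899944-153909723 on the plus strand. *Gls2* is at chr10:128194457-128210004 on the plus strand, *Got1* at chr19:43499752-43524605 on the minus strand, *Got2* at chr8:95864134-95888547 on the minus strand and *Glud1* at chr14:34310727-34345265 on the plus strand. A processed copy, *Got2-ps1*, was at or below 0.0948 FPKM in all groups.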

How the data were processed

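Libraries of poly-A RNA, made with a kit that does not mark strand, were sequenced single-end. TopHat, with Bowtie, placed the reads on mm10 for the authors, Cufflinks and Cuffmerge built a shared set of transcripts, and Cuffdiff estimated FPKM. The deposited table holds 1 FPKM value per group, with interval bounds and a status, for 37303 genes and 6 groups. Read depth per library was not used here, and the intervals set the precision. Of all values 160 had a status other than OK, none of them in the 8 genes. Groups came from the sample labels.

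The 8 genes and the lists were chosen with earlier results of these data known. Linear models on single libraries, foreseen if the table held such values, could not be fitted. The 9 comparisons used the call rule given above, and 8 alternatives were tried, 1 of them added after seeing the data. Named genes were the 8 enzymes, the called genes of the pathway list (at most 10), up to 4 zonal examples and the 3 genes nearest to each enzyme by correlation. Python 3.11.15, numpy 2.4.6 and pandas 2.3.3 were used, and the calling code was tested on simulated data.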

Additional observations from a re-analysis of the deposited data

How the results depend on the processing

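The 8 alternatives were a pseudocount of 1 or 0.01, no filter on low values, a filter at 1 FPKM, scaling by size factors, a log2 limit of 1, a combined interval, in which the difference in FPKM must exceed the root of the summed squares of the distances to the upper bounds, and, added after seeing the data, a log2 difference over its own log2 error in place of separate intervals. With no filter on low values the genes called numbered 124 for ASNase in WT mice, 144 for Gcn2-/- against WT under PBS and 153 for Atf4-/- against WT under PBS, against 80, 93 and 101 as reported. With the combined interval 1 of the 8 genes was called for Atf4-/- against Gcn2-/- under ASNase in place of 0. This was *Asns*, at 1.74. With the log2 error 3 of the 8 genes were called in place of 1 for ASNase in Atf4-/- mice (*Glul* at -2.19 and *Gls2* at -1.73 besides *Asns*), 1 in place of 0 for Atf4-/- against WT under ASNase (*Gls2* at -2.12) and 1 in place of 0 for Atf4-/- against Gcn2-/- under ASNase (*Asns*). Of 576 recomputed values of the 8 genes 4 changed sign, all from a reported size of at most 0.0137. Neither the combined interval nor the log2 error applies to the difference of responses, which already combines the errors. Leaving out each replicate in turn was not run. No paired analysis was possible because the table holds 1 pooled value per group. The width of the intervals limits which differences can be detected, most of all for *Asrgl1* and *Glul*, whose lower bound was 0 in 6 and in 4 groups. *Asns* had a lower bound of 0 in 2 groups and the largest relative distance to an upper bound, 187% of the value.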
